A study of Bos taurus with 12 samples.

Results

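Prostaglandin synthesis and receptor genes are described here in bovine cumulus-oocyte complexes, each an oocyte enclosed by cumulus cells of the granulosa lineage. The set holds 9 genes of 17983 gene rows in the count table, chosen by symbol as PLA2G4A, PTGS1, PTGS2, PTGES, PTGES2, PTGES3, PTGER2, PTGER4 and HPGD, and each symbol had a single row. Complexes from Bos taurus were matured in vitro in groups of 50, in control medium for 6 samples and, for the other 6, in medium with polystyrene nanoplastics 50 nm in diameter, at a dose of 3 µg/mL. Whole complexes gave polyadenylated RNA for sequencing, so the oocyte and the cumulus cells share a library, and fewer cells of a type cannot be told apart from less RNA per cell. The samples came from 3 batches of bovine material, and which sample belongs to which batch is not stated, so batch and library cannot be told apart.

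Prostaglandins are made from arachidonic acid, which cytosolic phospholipase A2 (PLA2G4A) frees from membrane phospholipids. The cyclooxygenases PTGS1, usually the constitutive form, and PTGS2, the inducible form, turn it into prostaglandin H2, and prostaglandin E synthases turn that into prostaglandin E2. Prostaglandin E2 signals through the receptors EP2 (PTGER2) and EP4 (PTGER4), which raise cyclic AMP, and 15-hydroxyprostaglandin dehydrogenase (HPGD) begins its breakdown. In cumulus cells the ovulatory signal and EGF-like ligands induce PTGS2, and in mice PTGS2 and PTGER2 are needed for normal expansion of the cumulus.

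The transcripts of the synthesis steps were detected in all 12 libraries, while those of EP2, EP4 and HPGD were at or near a count of 0. PTGS2 had the largest log2 fold change of the 6 tested genes, at 0.51 (SE 0.25), with its highest levels in 3 of the 6 nanoplastics libraries. No gene of the set passed the test. The quasi-likelihood test of edgeR, adjusted by Benjamini-Hochberg, called 0 of the 6 tested genes at an adjusted p of 0.05, against 0% of all 12311 tested genes. At an unadjusted p under 0.05 there were 0 of the 6, against 2.10% of the tested genes. DESeq2, run on all 9, also called 0, as it did among all 15496 genes with a count. PTGS2 alone of the 9 was under the unadjusted level, against 319 of the 15496.

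The libraries held 14167578 to 20008464 counts. Of the oocyte marker list 11 of 12 genes were found and all 11 were expressed enough to be tested, with a summed level of 414 to 516 CPM (counts scaled to library size) without and 415 to 570 CPM with the particles. All 12 cumulus and granulosa markers were tested, with a summed level of 8774 to 10376 CPM without and 9278 to 10426 CPM with them. Most of that sum came from SERPINE2 (6578 CPM on average). INHA, HAS2, INHBA, TNFAIP6 and AMH averaged 1073, 576, 533, 425 and 298 CPM, and PTX3, FOXL2 and GATM 92.2, 36.0 and 15.6 CPM. FSHR, AMHR2 and CYP19A1 averaged only 5.01, 1.76 and 1.52 CPM. The leukocyte list summed to 5.50 to 9.84 CPM without and 5.86 to 16.5 CPM with the particles. PTPRC and CD3E, which define leukocytes and T cells, had maximum counts of 9 and 4. CD68 had the highest mean of this list, 4.59 CPM, with 53 to 117 counts, and CSF1R had 4 to 54 counts. CD14, CD163, LYZ, ITGB2 and TYROBP had at most 18, 23, 28, 35 and 15 counts. Of the 9 genes in the list 4 were tested. Endothelial markers summed to 37.5 to 48.7 CPM without and 38.9 to 53.1 CPM with the particles, most of it from KDR (36.5 CPM on average). TEK, VWF and PECAM1 had 43 to 104, 19 to 58 and 13 to 58 counts per library, and CLDN5 had 0 to 17. CDH5 and EMCN averaged fewer than 3 counts per library. Of the 7 genes in this list 4 were tested. Theca and stroma markers summed to 1181 to 1851 CPM without and 1455 to 1786 CPM with the particles. Most of it came from the collagen gene COL1A1 (1051 CPM on average). LUM, INSL3 and DCN averaged 327, 152 and 29.7 CPM, whereas the theca enzyme CYP17A1 had at most 4 counts. The other collagen genes COL1A2, COL3A1 and COL6A3 averaged only 2.59, 4.21 and 2.28 CPM, and ACTA2 and PDGFRB 5.88 and 0.47 CPM. Of the 10 genes in this list 8 were tested. The mean log2 CPM of this list was highest in Nanoplastics 2 (5.58) and Nanoplastics 6 (5.19). CPM values below are scaled by TMM and are not divided by transcript length, so they are compared between libraries and not between genes.

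Arachidonic acid release was represented by PLA2G4A (ENSBTAG00000013298). It had 25.0, 28.9, 28.9, 22.8, 27.1 and 27.2 CPM in Control 1 to 6. In Nanoplastics 1 to 6 it had 35.6, 31.0, 21.1, 21.5, 34.7 and 27.1 CPM. Nanoplastics 1, 2 and 5 lay above every control library, Nanoplastics 3 and 4 below every one, and Nanoplastics 6 within the control range. The group means were 26.7 ± 2.35 CPM in controls and 28.5 ± 6.36 CPM with nanoplastics (SD, n = 6 each), with a log2 fold change of 0.10 (95% interval −0.17 to 0.37). This difference was smaller than the SD of either group and did not pass (edgeR unadjusted p = 0.462, adjusted p = 0.999).

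PTGS2 (ENSBTAG00000014127), the inducible cyclooxygenase, had 135 to 221 counts in control and 119 to 431 counts in nanoplastics libraries. Its level in Control 1 to 6 was 7.07, 10.8, 9.23, 10.1, 12.3 and 11.2 CPM. In Nanoplastics 1 to 6 it was 25.4, 18.9, 8.25, 8.50, 15.7 and 9.82 CPM. Again Nanoplastics 1, 2 and 5 stood above the highest control library, whereas Nanoplastics 3, 4 and 6 lay within the control range, so the groups overlapped. Across all tested genes, groups that did not overlap occurred for 0.0731%.

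The mean of PTGS2 was 10.1 ± 1.82 CPM in controls and 14.4 ± 6.87 CPM with nanoplastics (SD, n = 6 each). The log2 fold change of 0.51 had a 95% interval of −0.03 to 1.05 and did not pass (edgeR unadjusted p = 0.0609, adjusted p = 0.999). PTGS2 was 1 of 6 tested members with a log2 fold change of at least 0.5 toward higher values, against 1.53% of all tested genes. Without Nanoplastics 1 its log2 fold change was 0.27. The authors' deposited table lists PTGS2 with a log2 fold change of 0.51, a p of 0.0382 and an adjusted p of 0.999928. The shrunken log2 fold change of PTGS2 in the authors' deposited table is 0.09.

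The spread of PTGS2 was wide for its abundance. Its biological coefficient of variation in the edgeR fit was 0.298, against a fitted value of 0.162 for genes of that abundance. The SD of its log2 CPM within groups, 0.51, lay at the 93.4th percentile of all tested genes. The highest library held 3.59 times the CPM of the lowest.

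PTGS1 (ENSBTAG00000006716), the constitutive cyclooxygenase, had 24 to 55 counts per library over both groups. In Control 1 to 6 it stood at 1.73, 2.77, 2.25, 1.64, 2.40 and 1.52 CPM. In Nanoplastics 1 to 6 it stood at 2.65, 1.73, 2.49, 1.85, 2.30 and 1.72 CPM. All 6 nanoplastics libraries lay within the control range, and Nanoplastics 2, which was high in PTGS2, was among the low libraries for PTGS1. The log2 fold change was 0.04 (95% interval −0.38 to 0.47; edgeR adjusted p = 0.999). At this depth changes within that interval could not be told from 0. The log2 difference of PTGS2 over PTGS1 within a library averaged 2.25 ± 0.36 in controls and 2.59 ± 0.64 with nanoplastics (SD, n = 6 each) and ran from 1.68 to 3.36.

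**Figure D1:**
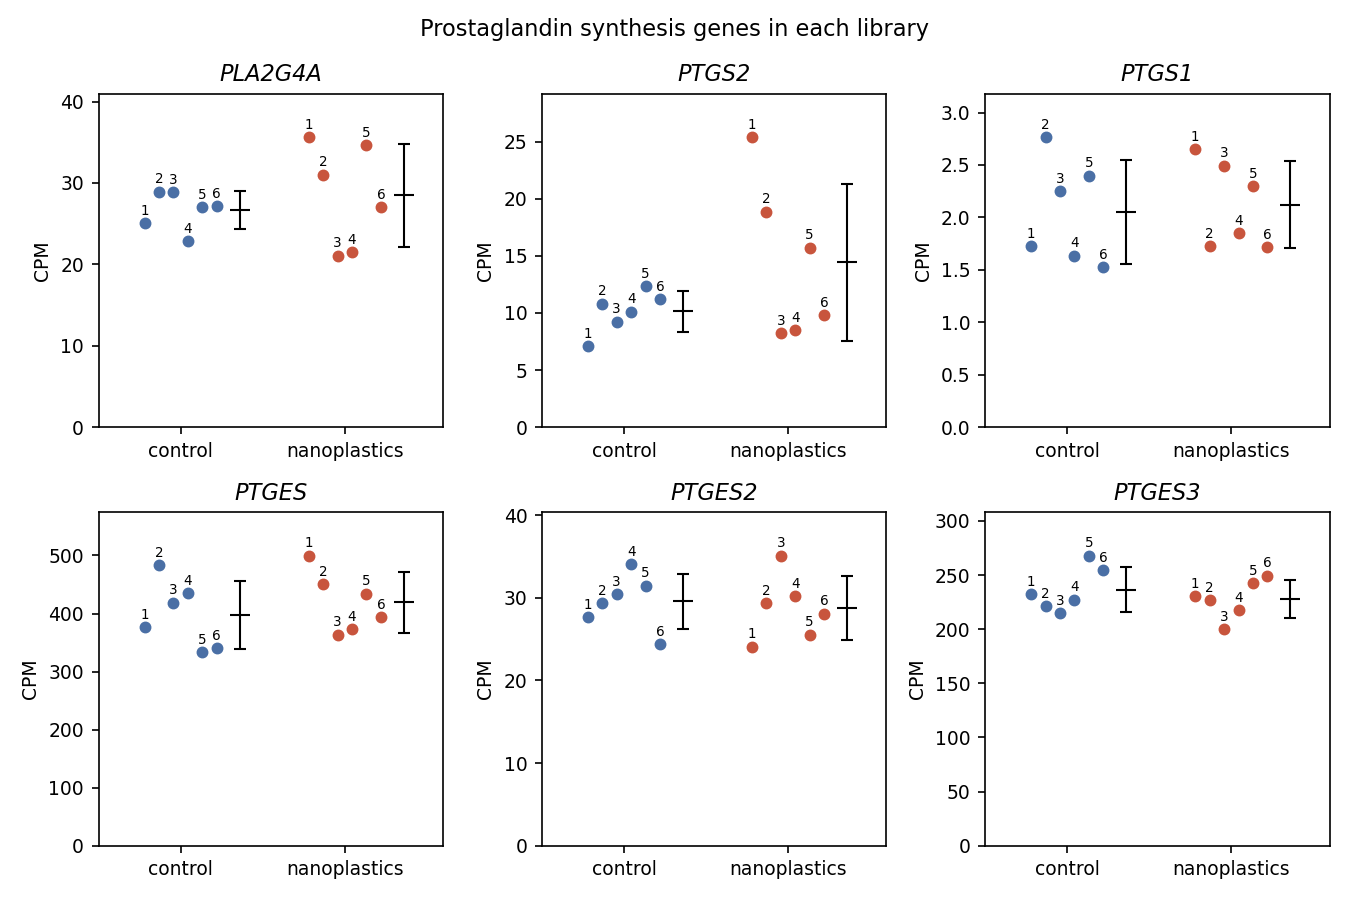
Level in CPM (y axis) of 6 prostaglandin synthesis genes in each control (blue) and nanoplastics (red) library, with the replicate number at each point and the mean ± SD (n = 6) at the right of each group. PTGS2 and PLA2G4A are highest in Nanoplastics 1, 2 and 5, and for all 6 genes the groups overlap.

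The terminal synthases of prostaglandin E2 varied less. PTGES (ENSBTAG00000019453), the inducible microsomal synthase that works with PTGS2, had 5248 to 9604 counts per library. Its level in Control 1 to 6 was 376, 483, 419, 435, 333 and 341 CPM. In Nanoplastics 1 to 6 the values were 499.95, 451, 364, 373, 434 and 394 CPM. Nanoplastics 1 was the highest library and Control 5 the lowest. The log2 fold change was 0.08 (95% interval −0.14 to 0.29; edgeR adjusted p = 0.999).

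PTGES2 (ENSBTAG00000016218), a membrane-associated prostaglandin E synthase, ran from 24.4 to 34.0 CPM with a median of 29.9 CPM in control libraries. The nanoplastics libraries ran from 24.1 to 35.1 CPM with a median of 28.7 CPM. Nanoplastics 1 and 5, which were high in PTGS2, were the lowest of their group in PTGES2, and Nanoplastics 3 was the highest. Its log2 fold change was −0.04 (95% interval −0.25 to 0.16; edgeR adjusted p = 0.999).

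PTGES3 (ENSBTAG00000017967) encodes p23, the cytosolic synthase that is also a co-chaperone of HSP90. It ran from 215 to 268 CPM (median 229.8) in control and from 200.03 to 249 CPM (median 229) in nanoplastics libraries. It was the steadiest of the 6 tested genes, with a within-group SD of log2 CPM of 0.12, at the 20.5th percentile of tested genes. The log2 fold change was −0.05 (95% interval −0.20 to 0.10; edgeR adjusted p = 0.999). The intervals of PTGES, PTGES2 and PTGES3 each lay within 0.3 of 0 on the log2 scale, and that of PTGS2 reached past 1.

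The receptors were at the limit of detection. PTGER2 (ENSBTAG00000002163), the gene of EP2, had counts of 0, 0, 1, 2, 2 and 1 in Control 1 to 6 and 4, 3, 1, 1, 1 and 0 in Nanoplastics 1 to 6. The sum of 6 counts in control corresponded to 0.0573 CPM and that of 10 in nanoplastics libraries to 0.0975 CPM. PTGER4 (ENSBTAG00000014972), the gene of EP4, had 0, 4, 0, 3, 6 and 3 counts in Control 1 to 6 and 9, 0, 2, 5, 7 and 0 in Nanoplastics 1 to 6. For both receptors the groups overlapped, and libraries at 0 occurred in each group. In RefSeq's gene table for ARS-UCD2.0, PTGER2 shares its position in part with 1 other annotated gene, LOC132346327. How reads in such an overlap were counted is not stated, and its part in the low counts of PTGER2 was not tested. Among the 9 genes only PTGS1, with MIR10175, had another such overlap.

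HPGD (ENSBTAG00000025942), the dehydrogenase that inactivates prostaglandins, had counts of 1, 2 and 3 in Control 1, 2 and 3 and 0 in the other control libraries. It had 0 in all 6 nanoplastics libraries, which together hold 102567486 counts, so a level of up to 0.0292 CPM is allowed there by 3 counts over the group. That limit covers counting error only. The 6 control counts corresponded to 0.0573 CPM.

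None of these 3 genes passed the filter on low counts. Without that filter, edgeR gave HPGD an unadjusted p of 0.0376 and an adjusted p of 0.998, and DESeq2 gave an unadjusted p of 0.287, so no difference was called. The unadjusted p-values of PTGER2 and PTGER4 without the filter were 0.380 and 0.505. The authors' deposited table does not list these 3 genes.

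**Figure D2:**
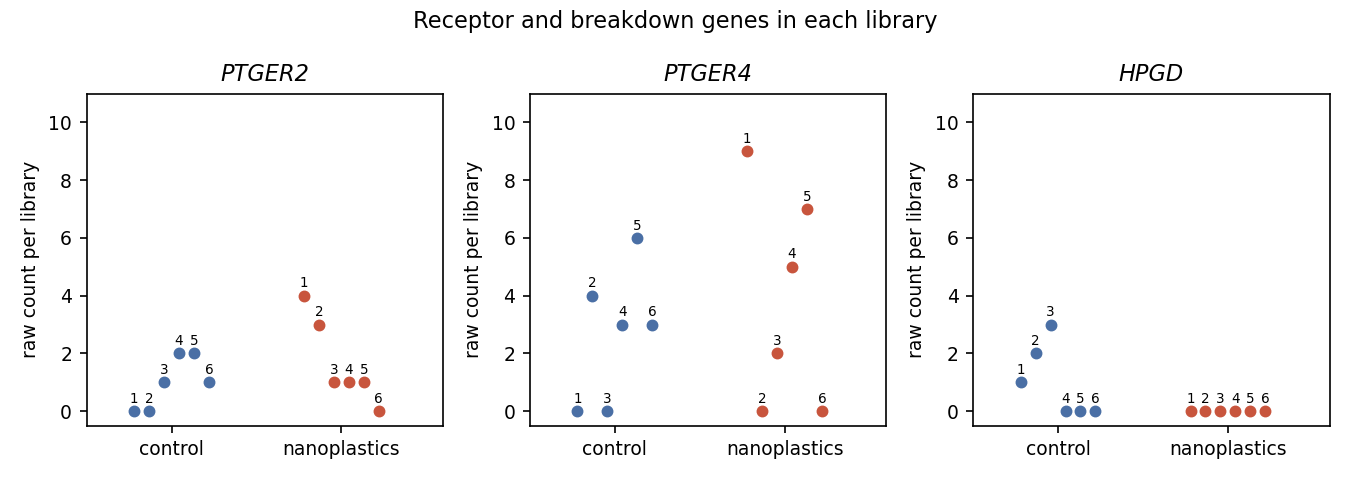
Raw count per library (y axis) of PTGER2, PTGER4 and HPGD in control (blue) and nanoplastics (red) libraries, with the replicate number at each point. Counts range from 0 to 9, and HPGD is at 0 in all 6 nanoplastics libraries and in 3 of 6 control libraries.

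**Figure D3:**
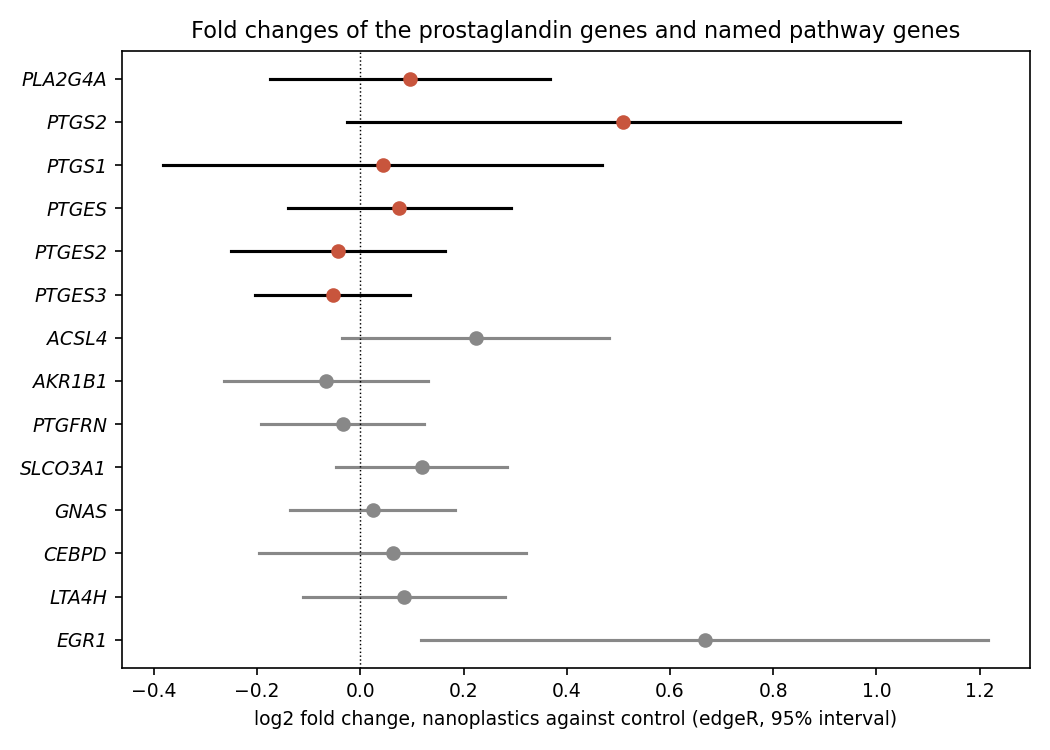
Log2 fold change of nanoplastics against control (x axis, edgeR, with 95% interval) for the 6 tested prostaglandin genes (red points) and 8 other genes of the pathway (grey). The interval of each of the 6 includes 0, from −0.03 to 1.05 for PTGS2, and EGR1 has the only interval shown that lies above 0.

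Among the members, PTGS2 and PLA2G4A varied together over the libraries. Over 12 libraries their log2 CPM had a Pearson r of 0.81 (permutation p = 0.00137, adjusted over 15 pairs of members p = 0.0205) and a Spearman rho of 0.82 (permutation p = 0.00186, adjusted p = 0.0279). The relation was seen within the nanoplastics group (r = 0.91) and was weak within the control group (r = 0.28), and the difference between those values was not tested. Without Nanoplastics 1 and 2, the libraries farthest from the PTGS2 median, r was 0.73. With Nanoplastics 1 alone left out, r was 0.74 and the adjusted permutation p 0.136, so the call rests on that library. In RefSeq's gene table for ARS-UCD2.0 the genes PTGS2 and PLA2G4A are neighbours, with only 1 annotated pseudogene between them.

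No other pair of members passed. PTGES2 and PLA2G4A had r = −0.71 (rho = −0.64; adjusted permutation p = 0.0764 and 0.189). PTGS2 and PTGES had r = 0.57 over 12 libraries (rho = 0.45; adjusted permutation p = 0.194 and 0.371), but r = 0.99 within the nanoplastics group and −0.16 within the control group. In the control group the high PTGES libraries were Control 2 and 4, and the high PTGS2 libraries were Control 5 and 6. PTGES and PTGES3 had r = −0.87 within the control group and 0.46 within the nanoplastics group, with r = −0.32 over all (rho = −0.28; adjusted permutation p = 0.455 and 0.519).

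The gene whose pattern was most like that of PTGS2 was NR5A2, a nuclear receptor of granulosa and luteal cells also known as LRH-1. It ranked first of 12280 other tested symbols by Pearson r of log2 CPM over 12 libraries, with r = 0.97 and rho = 0.97, and r was 0.93 within the control and 0.98 within the nanoplastics group. Its level in Control 1 to 6 was 334, 397, 360.02, 376, 394 and 409 CPM. In Nanoplastics 1 to 6 it was 547, 450.4, 329, 353, 457 and 371 CPM. As with PTGS2, Nanoplastics 1, 2 and 5 lay above every control library and Control 1 was the lowest control library. NR5A2 had a log2 fold change of 0.14, smaller than that of PTGS2, and did not pass (edgeR adjusted p = 0.999).

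The next genes by likeness were GPCPD1, a glycerophosphocholine phosphodiesterase (r = 0.96), SAT1, the acetyltransferase of polyamine breakdown (r = 0.95), ARRDC3, an arrestin-domain protein (r = 0.95), and PDCD6IP, the ESCRT-associated protein ALIX (r = 0.95). Spearman's rho of these 4 ran from 0.88 to 0.96. Without Nanoplastics 1 and 2 the r of the 5 genes ran from 0.83 to 0.96. These genes were picked as the highest of all, so no p is given for them. PLA2G4A would have ranked 405th on the same measure.

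Genes of the oxygen response also moved with PTGS2. The mean log2 CPM of 15 such genes, VEGFA among them, had r = 0.82 with PTGS2 over 12 libraries (permutation p = 5.30e-04, rho = 0.77, permutation p = 0.00469; adjusted over 42 relations p = 0.00924 and 0.0328). The oxygen-response and marker lists were chosen with earlier results of these data known, so the permutation p-values of their relations are descriptive. For PTGS2 and the oxygen-response list, r was 0.98 within the nanoplastics group and 0.39 within the control group. Nanoplastics 1, 2 and 5 had list means of 7.22, 6.76 and 6.83, above the highest control library at 6.60, and Nanoplastics 3, 4 and 6 had 5.28, 5.31 and 5.41. Without Nanoplastics 1 and 5, the libraries farthest from the median of the list, r was 0.68. Without Nanoplastics 1 alone the adjusted permutation p was 0.0543. Control 5, the highest control library in PTGS2, was next to the lowest of all libraries in the oxygen-response list, at 5.12.

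PLA2G4A and PTGES followed the same list. PLA2G4A had r = 0.81 with it (permutation p = 0.00167, rho = 0.85; adjusted permutation p = 0.0140 and 0.00955) and PTGES had r = 0.73 (permutation p = 0.00852, rho = 0.73; adjusted permutation p = 0.0447 and 0.0506). Within the control group these values of r were 0.47 and 0.49, and within the nanoplastics group 0.93 and 0.96. Without Nanoplastics 1 and 5 they were 0.65 and 0.62. PTGS2 and PLA2G4A also had r = 0.80 and 0.84 with the mean of the red blood cell list (rho = 0.85 and 0.91; adjusted permutation p = 0.00924 each for r), and 0.64 and 0.76 without Nanoplastics 1 and 2. Within the control group these values of r were 0.34 and 0.63, and within the nanoplastics group 0.97 and 0.91. That mean is set by the globin genes HBA and HBM, since HBB and the red cell anion exchanger SLC4A1 were at 0 in every library. The part of these lists in the level of PTGS2 was not tested.

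Cumulus and granulosa markers moved with PTGES, at r = 0.77 (permutation p = 0.00465, rho = 0.72; adjusted permutation p = 0.0279 and 0.0546), and the relation was of like size within control (r = 0.75) and nanoplastics (r = 0.80) libraries. PLA2G4A had r = 0.77 with the same markers (rho = 0.79; adjusted permutation p = 0.0276 and 0.0261). Without Nanoplastics 2 and 4, the r of PTGES with these markers was 0.78 and that of PLA2G4A 0.72. PLA2G4A also had r = 0.82 with the mean of the 4 tested leukocyte markers (permutation p = 0.00104, rho = 0.85; adjusted permutation p = 0.0109 and 0.00955), with r = 0.94 within control and 0.82 within nanoplastics libraries, and r = 0.77 without Control 4 and Nanoplastics 5. Without Nanoplastics 1 this was the one relation of the 42 that still passed by r (r = 0.86, adjusted permutation p = 0.0353), while 4 passed by rho. The mean of these leukocyte markers was low, from −0.71 log2 CPM in Control 4 to 1.33 in Nanoplastics 5. The part of counting error in it was not tested. PTGES3 had r = −0.70 with the oocyte markers (rho = −0.66; adjusted permutation p = 0.0478 and 0.0821). Within the control group that r was −0.74 and within the nanoplastics group −0.64. Without Control 3 and Nanoplastics 3 it was −0.45, so the size of the relation of PTGES3 depends on these libraries. Theca and stroma markers had r = 0.52 with PTGS2 (rho = 0.63; adjusted permutation p = 0.182 and 0.103) and r = 0.54 with PLA2G4A (rho = 0.67; adjusted permutation p = 0.182 and 0.0737), and neither passed. Without Nanoplastics 2 and 6 these values of r were 0.66 and 0.82. In all, 9 of the 42 relations passed by Pearson's r with all 12 libraries and 6 by Spearman's rho, by which the relations of PTGES and PTGES3 did not pass.

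**Figure D4:**
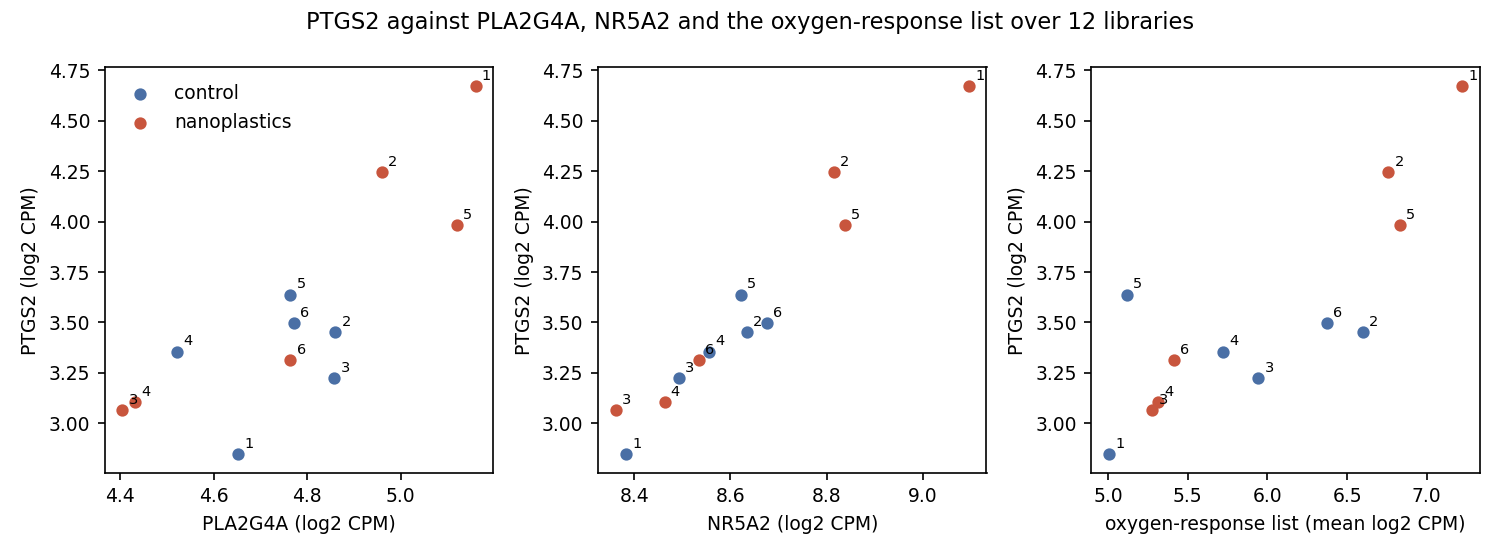
Log2 CPM of PTGS2 (y axis) against log2 CPM of PLA2G4A, log2 CPM of NR5A2 and the mean log2 CPM of the oxygen-response list (x axes) in control (blue) and nanoplastics (red) libraries, with replicate numbers. Over the 12 libraries r is 0.81, 0.97 and 0.82, and Nanoplastics 1, 2 and 5 lie at the upper right of each panel.

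The remaining genes of the pathway were divided over 7 lists with 87 genes, of which 61 were tested. edgeR called 0 higher and 0 lower in each list, and 31 of the 61 had a positive log2 fold change, against 50.5% of all tested genes. Their median log2 fold change was 0.00434, against 0.00133 for all tested genes. At an unadjusted p under 0.05 there was 1 gene of the 61, EGR1, against 2.10% of all tested genes.

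Among genes that supply and re-esterify arachidonic acid, 12 of 18 were tested, 6 of them positive, with a median log2 fold change of −0.0073. ACSL4, the acyl-CoA synthetase that prefers arachidonic acid, had 347 ± 33.0 CPM in controls and 405 ± 91.3 CPM with nanoplastics (SD, n = 6 each) and a log2 fold change of 0.22 (95% interval −0.04 to 0.48; edgeR adjusted p = 0.999). The secreted phospholipases PLA2G2A and PLA2G5 had a count of 0 in every library.

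Of the synthases of other prostanoids, 5 of 9 were tested. AKR1B1, an aldose reductase known in cattle as a prostaglandin F synthase, had 118 ± 10.9 CPM in controls and 113 ± 16.5 CPM with nanoplastics (SD, n = 6 each; log2 fold change −0.07, edgeR adjusted p = 0.999). PTGDS, the lipocalin-type prostaglandin D synthase, had 1013 to 1872 counts per library, while the haematopoietic form HPGDS was at 0 in all of them. PTGIS, the prostacyclin synthase, had 26 to 74 counts, and TBXAS1, the thromboxane synthase, 1 to 7 counts.

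Of the other prostanoid receptors, 4 of 8 listed genes were tested and the rest had few counts or none. PTGDR2, a prostaglandin D2 receptor, had 23 to 74 counts per library and a log2 fold change of 0.04. PTGER3, the gene of the EP3 receptor, which lowers cyclic AMP, had 10 to 36 counts per library, and the prostaglandin F receptor PTGFR had 13 to 44 counts. PTGER1 did not pass the filter at 0 to 13 counts, and the prostacyclin receptor PTGIR and the prostaglandin D receptor PTGDR were at 0 throughout. PTGFRN, a membrane protein that associates with the prostaglandin F receptor and is not itself a prostanoid receptor, had 93.0 ± 8.58 CPM in controls and 90.9 ± 7.62 CPM with nanoplastics (SD, n = 6 each; log2 fold change −0.03).

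For transport and breakdown, 6 of 9 genes were tested. SLCO3A1, an organic anion transporter that carries prostaglandins, had 92.4 ± 7.72 and 100.4 ± 10.3 CPM (SD, n = 6 each; log2 fold change 0.12, edgeR adjusted p = 0.999). The prostaglandin transporter SLCO2A1 had only 0 to 24 counts per library. The reductases PTGR1 and PTGR2, which act after HPGD, had 570 to 1052 and 279 to 500 counts.

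The machinery below EP2 and EP4 was present. Of 15 genes of cyclic AMP signalling, 13 were tested, 5 positive and 8 negative, with a median log2 fold change of −0.05. GNAS, the stimulatory G protein subunit, had 877 ± 85.5 CPM in controls and 892 ± 66.8 CPM with nanoplastics (SD, n = 6 each; log2 fold change 0.02, 95% interval −0.14 to 0.18). Of the lipoxygenase and leukotriene list, 4 of 9 genes were tested, with LTA4H, the leukotriene A4 hydrolase, at a log2 fold change of 0.08 (edgeR adjusted p = 0.999). ALOX5AP, the activating protein of 5-lipoxygenase, had at most 3 counts in a library.

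Regulators of PTGS2 transcription and mRNA decay had 17 of 19 genes tested, 12 positive and 5 negative, with a median log2 fold change of 0.06 and 0 called. CEBPD, a C/EBP family transcription factor, had 485 ± 72.8 CPM in controls and 507 ± 89.8 CPM with nanoplastics (SD, n = 6 each; log2 fold change 0.06). EGR1, an immediate early zinc finger factor, had 109.5, 181, 114, 152, 104 and 118 CPM in Control 1 to 6. In Nanoplastics 1 to 6 it had 392, 222, 114, 126, 241 and 140.01 CPM. Nanoplastics 1, 2 and 5 were above every control library, the libraries that were also high in PTGS2. The log2 fold change of EGR1 was 0.67 (95% interval 0.12 to 1.22; edgeR unadjusted p = 0.0205, adjusted p = 0.999), with 5 of 6 nanoplastics libraries above the control median.

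**Figure D5:**
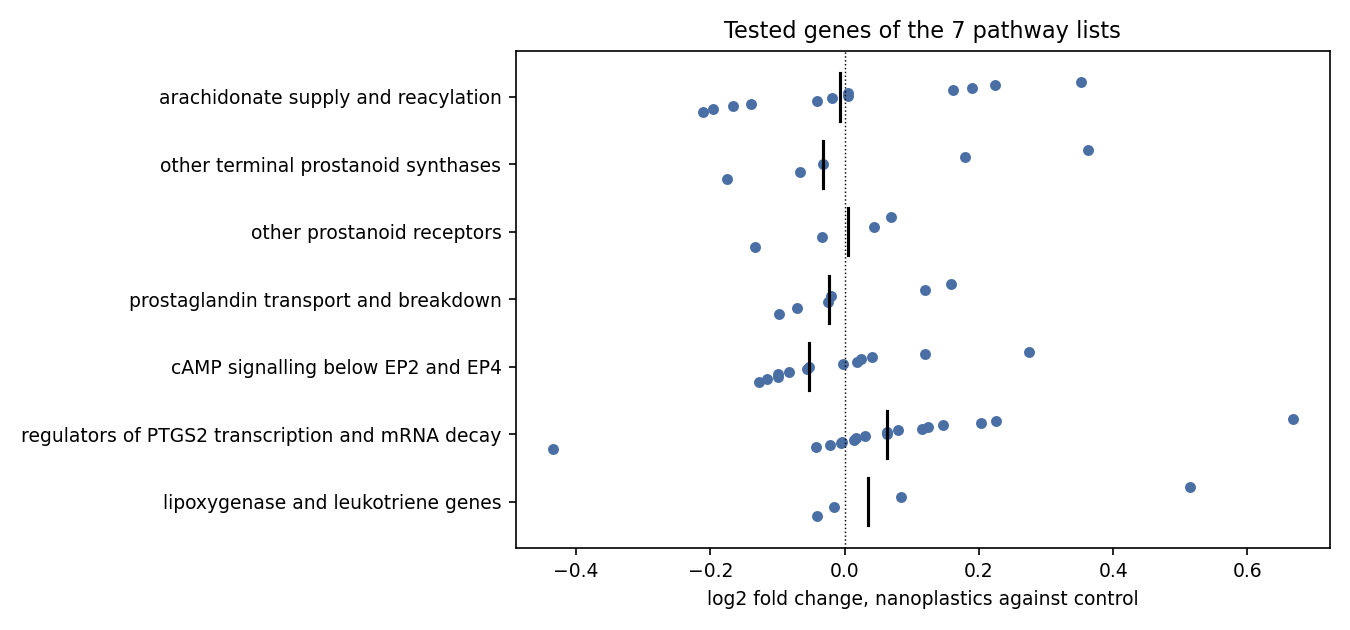
Log2 fold change of nanoplastics against control (x axis) for the 61 tested genes of 7 lists of prostaglandin-related genes (y axis), each point a gene and each black line the median of its list. List medians lie between −0.05 and 0.06, and the gene farthest to the right is EGR1 at 0.67.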

How the data were processed

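Paired reads of 150 bases were sequenced from RNA of groups of 50 complexes, per the labels' protocols. The submitters' processing notes name Trim Galore 0.4.5, STAR 2.5.4b and DESeq2 but give none of them a role. How reads were assigned to genes, on which genome build and annotation and with what strand setting, is not stated, so no coordinates are printed and a gene cannot be separated from one that overlaps it. Raw counts per gene in 12 libraries make up the deposited count table. For counts above 0, log2 values in a further deposited table equal the log2 of the count shifted by an offset fixed within each library. That offset ran from −3.69 in Control 2 to −3.18 in Nanoplastics 3. How counts of 0 were treated there was not checked. The authors' deposited contrast table gives each gene a p-value, an adjusted p-value, a log2 fold change, a shrunken log2 fold change and, per group, a signal equal to the mean raw count. Its 4 columns of other groups were not used.

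From 18057 rows, 74 exact copies were dropped. Low genes were removed with filterByExpr (at least 10 counts in enough libraries, 15 in total), and the rest, scaled by TMM, entered edgeR 4.0.16 in R 4.3.3 (glmQLFit and glmQLFTest, two-sided, Benjamini-Hochberg, threshold 0.05). Log2 CPM used a prior count of 2. Correlations used two-sided permutation tests of 100000 resamples (Python 3.11.15). Alternatives were DESeq2 1.42.0, limma-voom (limma 3.58.1), other scalings, no count filter, the replicate number as a block, summed rows of one symbol, the deposited log2 values with limma, and each library left out.

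The genes and lists were chosen with earlier results of these data known. Besides the 9 genes, the text gives values with a test for the tested gene of each list with the highest mean CPM (a rule that takes no account of transcript length), genes with an unadjusted p under 0.05, and the 5 genes most like PTGS2. Other genes are given by counts or mean CPM, and PTGDR2 also by its log2 fold change, as examples chosen after their values were seen. P-values measure the spread between these samples, in which batches of material are mixed. No table of sequences was used here.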

Additional observations from a re-analysis of the deposited data

Results flagged for a closer look

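For each group, the distance from the highest or lowest library to the next one was set against the range of all 6. This was done for the 6 tested prostaglandin genes and 16 other genes, 44 groups of values in all, and 2 were set apart (4.55%), where chance sets apart about 1 in 20. None of the 6 genes was among them. GNAS stood at 9.48 log2 CPM in Control 5, against 9.78 to 9.91 in the other control libraries. LTA4H stood at 4.52 log2 CPM in Control 4, against 4.83 to 5.00 in the other control libraries.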

How the results depend on the processing

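Under 20 alternatives, 12 of which left out 1 library, 0 genes and 0 members were called in each. The log2 fold change of PTGS2 stayed positive, from 0.27 (without Nanoplastics 1) to 0.62 (without Nanoplastics 4) with a library left out and from 0.38 to 0.51 otherwise, with adjusted p-values from 0.933 to 0.9998. Its unadjusted p was under 0.05 in 4 of them, with DESeq2 and without Nanoplastics 3, 4 or 6. Over all genes, 319 of 15496, 444 of 12388, 482 of 12371 and 448 of 12360 were under that level in these settings. The values of PLA2G4A, PTGES and PTGES3 kept their sign in all 20, with PLA2G4A at 0.025 to 0.161 when a library was left out. With a library left out, PTGS1 ran from −0.028 to 0.144 and was negative in 5 settings, and PTGES2 ran from −0.114 to 0.0057 and was positive in 2. Leaving out a library moved the number of genes at an unadjusted p under 0.05 from 141 (without Nanoplastics 1) to 482 (without Nanoplastics 4), against 259.

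Same-numbered samples did not deviate together, with correlations of their deviations from −0.26 to 0.43, and 1 of 6 control samples correlated best with its own number. With the replicate number as a block, 0 genes, 0 members and 0 of the 61 pathway genes were called, and PTGS2 had a log2 fold change of 0.41. By Pearson's r, the number of passing pairs of members was 1 with all libraries and 0 without Nanoplastics 1, and that of relations with marker lists was 9 and 1. With values centred by group, these numbers were 1 and 7. Counts of 0 to 9 limit what can be said of PTGER2, PTGER4 and HPGD. The deposited log2 values were added after the data were seen.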
